A study of Homo sapiens with 12 samples.

Results

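The acute phase and complement genes described here are SAA1, SAA2, LCN2, SERPINA3, C1R, C1S, C3, CFB and SOD2, which are 9 of the 59424 identifiers measured in each cell line. They were picked for large falls when GALNT7 was overexpressed in DU145 cells, so the DU145 differences chose them and are given as a description with no test. The knockdown of GALNT7 in CWR22RV1 cells played no part in that choice and was tested. In DU145 cells 8 of the 9 genes were far lower with GALNT7 overexpression, and between 0.24% and 11.5% of the control level was left, while SERPINA3 was near the detection limit in both groups. In CWR22RV1 cells 5 of the 9 genes had at most 5 reads in any library, too few for a test, and none of the other 4 passed it.

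RNA-seq was carried out on stable lines of 2 prostate cancer cell lines, made by lentiviral transduction, with 3 biological replicates in each of 4 groups. CWR22RV1 cells carried a control shRNA (shControl) or an shRNA knocking down GALNT7 (GALNT7 KD). DU145 cells carried the GALNT7 open reading frame (GALNT7 OE) or a control one (OE control). GALNT7 is a glycosyltransferase that adds N-acetylgalactosamine to proteins that already carry it. All 4 groups were therefore transduced. The number of independently transduced lines per group and the promoter driving GALNT7 are not given in the sources used here, so p-values measure the spread between these libraries. As a check of the cell lines, the prostate gene KLK3 had group means of 392 and 808 normalised counts in CWR22RV1 cells and no read in DU145 cells.

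Acute phase proteins are secreted mainly by the liver during inflammation, when interleukin 6 and interleukin 1 activate STAT3, C/EBP and NF-kB factors in hepatocytes, and many epithelial and tumour cells also make some of them. Complement is a cascade of blood proteases: C1r and C1s sit in the C1 complex that starts the classical pathway, factor B provides the protease of the alternative pathway, and both pathways cut C3, the central component whose fragments mark surfaces. Serum amyloid A1 and A2 are acute phase apolipoproteins, lipocalin 2 (LCN2) withholds iron from bacteria by binding their siderophores, alpha-1-antichymotrypsin (SERPINA3) inhibits serine proteases, and SOD2 is the manganese superoxide dismutase of the mitochondrion.

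Promoter sequences from RefSeq on GRCh38.p14 were matched for 5 of the 9 genes (CFB, SOD2, LCN2, C1R and SERPINA3; 9 start sites), and the 250 bases before each start were searched on both strands for 4 motifs of factors that act in the acute phase response. The motifs were the kappaB consensus of NF-kB, TTCNNNGAA for STAT factors, TTNNGCAA for C/EBP and TTTCNNTTTC for the interferon response. LCN2 and CFB are shown because they were among the genes with the lowest remaining levels, and SERPINA3 because it did not share the difference. The starts are those of RefSeq and can differ from the ends of the gene positions given below, which come from GENCODE. The LCN2 and CFB windows lie inside those GENCODE positions. The capitals mark motif matches.
LCN2 (chr9:128149203-128149452, plus strand): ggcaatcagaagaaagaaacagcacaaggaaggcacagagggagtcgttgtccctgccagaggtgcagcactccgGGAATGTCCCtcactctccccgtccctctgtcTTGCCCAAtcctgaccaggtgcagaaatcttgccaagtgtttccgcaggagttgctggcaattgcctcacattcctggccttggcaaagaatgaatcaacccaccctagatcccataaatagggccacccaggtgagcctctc
CFB (chr6:31945845-31946094, plus strand): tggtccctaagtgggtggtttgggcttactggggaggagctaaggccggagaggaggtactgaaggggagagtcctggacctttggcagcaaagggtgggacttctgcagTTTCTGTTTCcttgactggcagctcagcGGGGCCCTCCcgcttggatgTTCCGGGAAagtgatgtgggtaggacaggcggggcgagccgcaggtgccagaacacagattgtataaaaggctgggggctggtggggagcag
SERPINA3 (chr14:94612141-94612390, plus strand): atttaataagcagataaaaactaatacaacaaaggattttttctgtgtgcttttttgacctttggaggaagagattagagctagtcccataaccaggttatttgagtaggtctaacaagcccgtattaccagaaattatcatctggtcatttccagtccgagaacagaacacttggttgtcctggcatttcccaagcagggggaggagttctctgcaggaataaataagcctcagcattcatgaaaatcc
LCN2 held the kappaB consensus at -175 to -166 and a C/EBP match at -143 to -136, both on the minus strand, counted from the base before the start as -1. CFB held an interferon-response match at -140 to -131, the kappaB consensus at -112 to -103 and a STAT match at -92 to -84, and none of these overlapped. No match lay in the SERPINA3 window or in the 4 SOD2 windows, while the 2 C1R windows held C/EBP matches and 1 STAT match. Over all 35116 promoter windows of this length, 9.96% held the kappaB consensus, 6.57% the STAT motif, 9.05% the C/EBP motif and 3.02% the interferon-response motif. These matches describe the letters only, and the libraries measure no binding.

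The CWR22RV1 libraries held 18364512 to 22264533 reads and the DU145 libraries 21628718 to 24356910. GALNT7 itself followed the labels. Its normalised count (reads divided by a size factor for each library) was 999 ± 122 (SD, n=3) in shControl and 461 ± 53.7 (SD, n=3) in GALNT7 KD cells, and 964 ± 75.8 (SD, n=3) in OE control against 2181 ± 176 (SD, n=3) in GALNT7 OE cells. The groups did not overlap in either cell line, with a log2 fold change of -1.11 (limma adjusted p=0.00512) and 1.18 (limma adjusted p=7.99e-05).

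**Figure D1:**
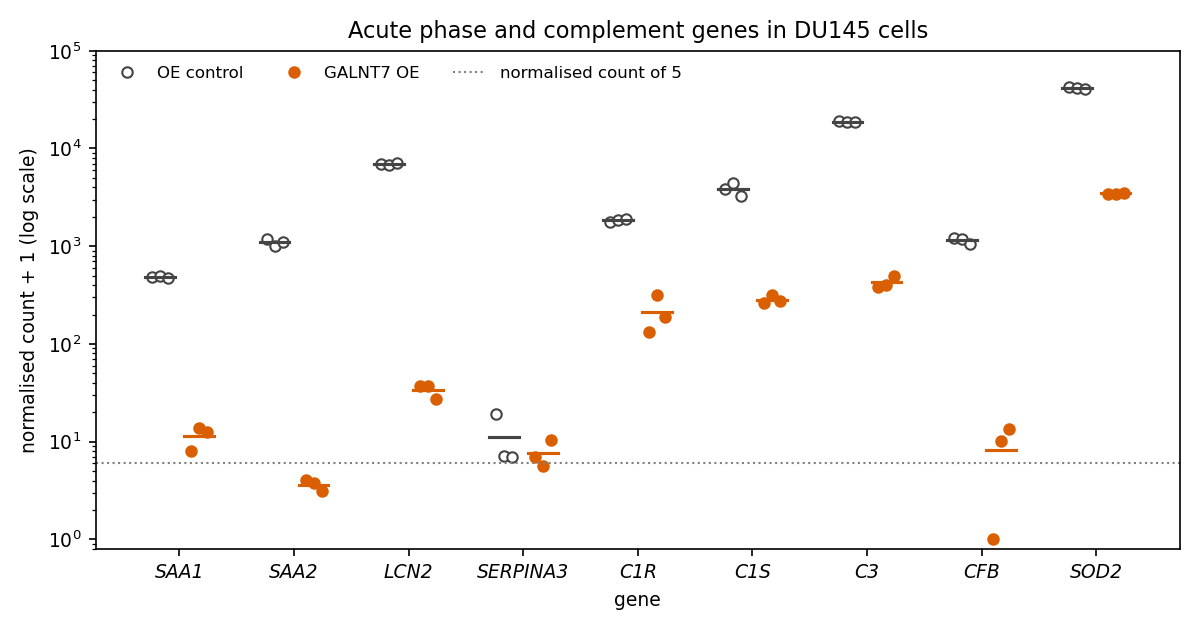
Normalised count plus 1, on a log scale, of the 9 genes in DU145 cells, with 1 point per library (open, OE control; filled, GALNT7 OE) and a bar at the mean of each group of 3. The filled points lie below the open ones for 8 genes and overlap them for SERPINA3, and the dotted line is the minimum mean of 5 used for tests.

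The serum amyloid genes stand side by side on chromosome 11, SAA1 at 18266174 to 18269977 on the plus strand and SAA2 at 18239223 to 18248643 on the minus strand. SAA1 was at 482, 497 and 475 normalised counts in the 3 OE control libraries and at 7.02, 12.9 and 11.5 in the 3 GALNT7 OE libraries. SAA2 was at 1170, 999 and 1113 in OE control and at 3.01, 2.77 and 2.10 in GALNT7 OE. No library of one group came near the other group, and the SAA2 values in GALNT7 OE rest on only 8 reads in all. The log2 fold change was -5.44 (SE 0.229) for SAA1 and -8.24 (SE 0.172) for SAA2. With GALNT7 OE, 2.17% of the SAA1 level was left (95% exact interval from read counts 1.48% to 3.07%) and 0.24% of the SAA2 level (0.104% to 0.473%). These intervals, and those below, cover counting error only. SAA2 had more reads than SAA1 in every OE control library, by 2.01 to 2.43 times, and fewer in every GALNT7 OE library, at 0.182 to 0.429 times SAA1. The coding sequences of the 2 genes are very similar and reads may be shared between them, so their sum is the firmer value: its mean was 1579 ± 78.4 in OE control and 13.1 ± 2.88 in GALNT7 OE (SD, n=3 each). Fewer cells making a transcript and less transcript per cell cannot be told apart in RNA from whole cultures.

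LCN2, on chromosome 9 at 128149071 to 128153455 on the plus strand, was at 6988, 6796 and 7119 normalised counts in OE control and at 36.1, 36.0 and 26.2 in GALNT7 OE. The lowest OE control library was thus 188-fold above the highest GALNT7 OE library. Its log2 fold change was -7.70 (SE 0.133), and 0.470% of the control level was left (0.383% to 0.573% by counting error). By log2 fold change LCN2 was the fifth lowest of the 18705 identifiers measured at a mean of at least 5 in DU145 cells. SAA2 was the third, and the 2 CFB identifiers used here were the second and the fourth.

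The C1 proteases are neighbours on chromosome 12, C1R at 7080199 to 7092607 on the minus strand and C1S at 6988259 to 7071032 on the plus strand. C1R was at 1748, 1864 and 1889 normalised counts in OE control and at 130, 312 and 188 in GALNT7 OE. C1S was at 3869, 4396 and 3289 in OE control and at 264, 313 and 273 in GALNT7 OE. Both genes were lower in every GALNT7 OE library, with a log2 fold change of -3.21 (SE 0.286) for C1R and -3.75 (SE 0.121) for C1S, and C1R had the widest spread among GALNT7 OE libraries of the members with a mean above 50 in both groups, with a coefficient of variation of 44.3%. They kept 11.5% and 7.35% of their control levels. Reads on C1S were 1.74 to 2.36 times those on C1R in the OE control libraries and 1.00 to 2.02 times in the GALNT7 OE libraries, so the ranges of the ratio overlapped.

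C3, on chromosome 19 at 6677704 to 6730562 on the minus strand, was at 19125, 18816 and 18494 normalised counts in OE control and at 380, 399 and 494 in GALNT7 OE. The libraries of each group lay close together, with a log2 fold change of -5.48 (SE 0.0977) and 2.26% of the control level left. CFB, which encodes factor B, lies on chromosome 6 at 31945650 to 31952084 on the plus strand. Its reads were taken from 2 identifiers, ENSG00000243649 on the primary assembly and ENSG00000241534, which GENCODE release 29 does not place there. Identifiers outside that release had no gene name here, so further CFB identifiers were not searched for and may hold reads. On the primary identifier CFB was at 1220, 1171 and 1054 in OE control and at 0, 9.24 and 12.6 in GALNT7 OE. On the other identifier it was at 3849, 4600 and 4483 in OE control and at 31.1, 9.24 and 7.34 in GALNT7 OE. The library listed at 0 on the primary identifier was the highest on the other, and the 2 identifiers can divide the same reads. Summed over both, CFB was at 5459 ± 357 in OE control and at 23.2 ± 6.89 in GALNT7 OE (SD, n=3 each). The log2 fold change was -7.79 (SE 0.920) on the primary identifier and -7.85 on the sum, and without GALNT7 OE replicate 1 the value on the primary identifier was -6.60.

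SOD2, on chromosome 6 at 159669057 to 159745186 on the minus strand, was the most abundant of the 9 genes by normalised count. It was at 42171, 41338 and 40962 in OE control and at 3444, 3439 and 3524 in GALNT7 OE. Its replicates were the tightest of the set in both groups, with coefficients of variation of 1.49% and 1.39%. The log2 fold change was -3.58 (SE 0.0304), and 8.36% of the control level was left, which still amounted to more reads than all other members had together in GALNT7 OE cells.

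SERPINA3, on chromosome 14 at 94612377 to 94624055 on the plus strand, did not share the pattern by which the set was named. It was at 18.1, 6.14 and 6.05 normalised counts in OE control and at 6.01, 4.62 and 9.44 in GALNT7 OE. The groups overlapped, and the control mean was raised by replicate 1 alone. The log2 fold change was -0.41 (SE 0.524), and without OE control replicate 1 it was 0.07. With 31 reads over the control libraries and 20 over the GALNT7 OE libraries, 66.2% of the control level was left by counting. The interval of 35.8% to 119.9% covers counting error only and leaves out the spread between libraries. The OE control libraries held 19, 6 and 6 reads, and no conclusion on a difference was drawn.

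Taking all members, 8 of 9 lay lower in GALNT7 OE with no overlap of the groups, beside 27.1% of the 18705 genes measured in DU145 cells. This count follows from how the genes were chosen and nothing is read from it. The median log2 fold change over the 9 genes was -5.44, beside -0.01 over all genes measured. Just inside the difference that named the set was C1R at -3.21, and SERPINA3 at -0.41 lay outside it. Together the 9 genes took 0.341% ± 0.0054 (SD, n=3) of all reads in OE control libraries and 0.0197% ± 0.0006 (SD, n=3) in GALNT7 OE libraries.

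Levels per kilobase were taken over merged exons and given as RPKM, the number of reads per kilobase scaled to a fixed library total. The order below therefore depends on the annotated lengths, 1598 bases for LCN2, 16493 for SOD2, 796 for SAA1 and 2227 for SAA2. Which transcripts the cells made was not examined, and transcripts shorter than these lengths would change the order. On this scale LCN2 stood highest in OE control cells at 197 ± 4.21 RPKM (SD, n=3). SOD2 followed at 113 ± 1.58 and C3 at 102 ± 1.66, and these 3 levels did not overlap. Below them were SAA1 at 27.4 ± 0.709, C1S at 26.9 ± 3.92 and SAA2 at 22.1 ± 1.71, and the C1S libraries, at 22.9 to 30.8, overlapped those of SAA1 and of SAA2. C1R was at 14.0 ± 0.600 and SERPINA3 at 0.0909 ± 0.0624. CFB was given no place in this order, since its primary identifier, at 10.4 ± 0.768, held only a part of its reads and the other identifier has no length in the annotation. On this scale LCN2 was at the 99.4th percentile of the protein-coding genes with a read in OE control cells, SOD2 at the 98.7th and C3 at the 98.5th, against the 15.8th for SERPINA3. The order changed in GALNT7 OE cells, where SOD2 led at 9.31 ± 0.0641, ahead of C3 at 2.26 ± 0.308, C1S at 1.94 ± 0.185 and C1R at 1.58 ± 0.704, which lay within the spread of C1R. LCN2 was at 0.909 ± 0.163 and SAA1 at 0.584 ± 0.171. SAA2 at 0.0523 ± 0.00973 was within the spread of SERPINA3 at 0.0591 ± 0.0215. The primary identifier of CFB alone was at 0.0643 ± 0.0575.

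The genes beside the members were examined because some overlap them and because SAA1 and SAA2, and C1R and C1S, are neighbours themselves. SAA4, a constitutive serum amyloid gene 2.33 kb from SAA2, was at 32.2 ± 3.11 (SD, n=3) normalised counts in OE control and had no read in the 3 GALNT7 OE libraries, so it was at least 10.8-fold lower against a floor of 3 reads per library (limma adjusted p=9.65e-05). HPS5, 8.69 kb on the other side of SAA1, rose from 870 ± 113 to 1280 ± 175 (log2 fold change 0.55, limma adjusted p=0.0128). The gene beside SAA2 was thus lower and the gene beside SAA1 higher. C1RL, a protease gene related to C1R that overlaps it, fell from 2887 ± 112 to 1563 ± 108, a log2 fold change of -0.89 (limma adjusted p=8.48e-05) against -3.21 for C1R. LPCAT3 and EMG1, which overlap C1S, were both higher in GALNT7 OE, with log2 fold changes of 0.25 (limma adjusted p=0.0445) and 0.62 (limma adjusted p=0.0017). The call of LPCAT3 was lost without 5 of the 6 libraries left out in turn, all but GALNT7 OE replicate 1, with adjusted p-values up to 0.13, and under rescaling to the 75th percentile, with an adjusted p of 0.17.

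NELFE, whose annotation ends 3 bases from CFB, rose from 1697 ± 58.3 to 2383 ± 88.5 (log2 fold change 0.49, limma adjusted p=4.90e-04). C2, the classical pathway relative of CFB that overlaps it, was at 15.6 ± 13.5 and 12.7 ± 12.6, with groups that overlapped (limma adjusted p=0.925). The C2 libraries ran from 0 to 24.2 in OE control and from 0 to 25.2 in GALNT7 OE. Any C2 reads under identifiers outside the annotation were not added, so its total level is not known. WTAP, which overlaps SOD2, fell by 0.64 on the log2 scale (limma adjusted p=2.13e-04) while ACAT2, 15.1 kb from SOD2, rose by 1.30 (limma adjusted p=1.02e-05). Beside LCN2, PTGES2 was at 1259 ± 246 and 1242 ± 157 (limma adjusted p=0.976) and C9orf16 fell by 0.88 on the log2 scale (limma adjusted p=1.46e-04). GPR108, which overlaps C3, fell by 0.47 on the log2 scale (limma adjusted p=0.00955). SERPINA1, the alpha-1-antitrypsin gene and the nearest measured gene before SERPINA3, fell from 1964 ± 72.7 to 950 ± 67.1 (log2 fold change -1.05, limma adjusted p=5.64e-05). Apart from SAA4, TNFSF14 and FNDC1, the neighbours shown differed by less than 2 log2 units, whereas 8 members differed by more than 3. The members were chosen for large falls in this same comparison, so nothing is read from that contrast. The libraries were made with a stranded kit, but whether the counting used strand is not given in the sources used here, so reads of overlapping genes may be shared.

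**Figure D2:**
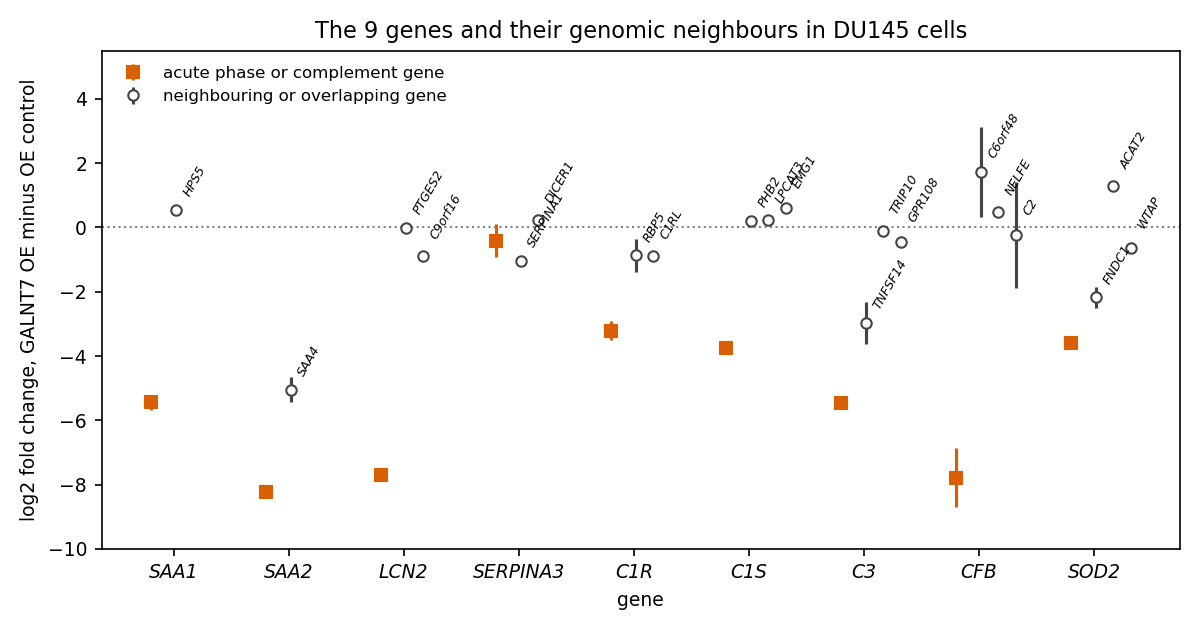
Log2 fold change (GALNT7 OE minus OE control, DU145 cells) of each of the 9 genes (squares) and of the measured protein-coding genes beside or overlapping it (circles, named), with bars of 1 standard error. The members lie between -8.24 and -0.41 and most neighbours between -1.05 and 1.30. The fitted value plotted for SAA4, which had no read in GALNT7 OE, depends on the pseudocount.

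The 5 genes whose profile over the 6 DU145 libraries lay nearest to the mean profile of the members were PDZK1IP1, CEMIP, F13A1, C1QTNF1 and TXNIP. Likeness was the root mean square difference of log2 values, centred on the OE control libraries, over 13628 genes with a mean of at least 50. It was 0.36 for PDZK1IP1, 0.39 for CEMIP, 0.46 for F13A1, 0.51 for C1QTNF1 and 0.62 for TXNIP. PDZK1IP1 was at 448 ± 19.4 (SD, n=3) in OE control and 14.2 ± 2.76 in GALNT7 OE. CEMIP, which encodes a hyaluronan-degrading protein, was at 1882 ± 279.8 and 75.7 ± 22.1, and F13A1, the A subunit of coagulation factor XIII, at 352 ± 79.2 and 11.1 ± 4.19. TXNIP, an inhibitor of thioredoxin, was at 8192 ± 64.2 and 432 ± 18.5. These genes were selected on the same libraries and their values are a description.

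The other genes of the pathways were taken from 7 lists by role, which hold none of the members, and were tested in the DU145 comparison with limma across all 18705 genes, of which 22.9% passed as higher and 20.5% as lower. With rescaling to the 75th percentile the calls over all genes shifted from 52.8% to 41.6% higher. Among complement components 2 of 7 tested genes were lower and 0 higher. C1RL was given above, and CFD, the protease that cuts factor B, fell from 86.7 ± 8.14 to 48.9 ± 13.2 (log2 fold change -0.84, limma adjusted p=0.0194). Its call was lost without OE control replicate 2 or 3 or GALNT7 OE replicate 2 or 3, with adjusted p-values of 0.06 to 0.065. The C1q chains C1QA, C1QB and C1QC, which form the C1 complex with C1r and C1s, had at most 1.91 normalised counts in any DU145 library, and C6, C7, C8A and C9 of the terminal pathway had no read.

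Complement inhibitors were lower for 7 of 10 tested genes and higher for 0. VTN, which encodes vitronectin, an inhibitor of the membrane attack complex, fell from 337 ± 13.7 to 36.3 ± 22.2 (log2 fold change -3.38, limma adjusted p=0.00107). SERPING1, the inhibitor of C1r and C1s, fell from 2130 ± 59.0 to 539 ± 33.5 (log2 fold change -1.98, limma adjusted p=4.39e-06). The membrane cofactor CD46 fell by 0.68 on the log2 scale and the secreted inhibitor clusterin (CLU) by 0.65, with limma adjusted p-values of 7.12e-05 and 1.67e-04. CD55 and CD59, the membrane anchored inhibitors, were at 94.3% and 98.9% of control and did not pass (limma adjusted p=0.323 and 0.813). Of complement receptors 2 of 7 were lower and 1 higher: ITGB2, the beta chain of complement receptors 3 and 4, fell from 5374 ± 352 to 1824 ± 202 (log2 fold change -1.56, limma adjusted p=3.11e-05), and C1QBP, a mitochondrial protein that binds C1q, rose from 1891 ± 115 to 4335 ± 56.4 (log2 fold change 1.20, limma adjusted p=1.19e-05).

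Other acute phase proteins were lower for 4 of 13 tested genes and higher for 1. Besides SERPINA1 and SAA4, the fibrinogen beta chain FGB rose from 26.0 ± 5.98 to 193 ± 16.2 (log2 fold change 2.87, limma adjusted p=7.92e-05), whereas FGA and FGG, the chains with which it forms fibrinogen, were at 10.9 ± 2.99 and 7.64 ± 3.61 in OE control and at 4.22 ± 1.86 and 5.03 ± 2.93 in GALNT7 OE and did not pass. C-reactive protein (CRP) had 14 reads over the OE control libraries and 1 over the GALNT7 OE libraries. Of the receptors and targets of acute phase proteins, 2 of 5 tested genes were lower and 0 higher. SLC22A17, a receptor described for lipocalin 2, fell from 368 ± 61.5 to 131 ± 15.3 (log2 fold change -1.48, limma adjusted p=3.88e-04).

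Enzymes that act on superoxide and peroxide, the nearest functional relatives of SOD2, were higher for 7 of 13 tested genes and lower for 1. SOD1, the cytosolic superoxide dismutase, rose from 3627 ± 100.4 to 4874 ± 211 (log2 fold change 0.43, limma adjusted p=5.30e-04), against -3.58 for SOD2. The peroxiredoxin PRDX1 rose by 0.59 on the log2 scale (limma adjusted p=1.56e-05) and the mitochondrial thioredoxin reductase TXNRD2 by 0.59 (limma adjusted p=8.06e-04). Catalase (CAT) fell by 0.18 on the log2 scale (limma adjusted p=0.0496), a call lost without GALNT7 OE replicate 1 or 2 or OE control replicate 1 or 2, with adjusted p-values up to 0.14. TXN2 rose by 0.17 (limma adjusted p=0.0414), a call lost without each of the 6 libraries, with adjusted p-values of 0.061 to 0.10, and at 0.34 with rescaling to the 75th percentile.

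Of the upstream cytokines, receptors and transcription factors 12 of 14 tested genes were lower and 0 higher, and TNF was not analysed here. NFKBIZ, a nuclear NF-kB cofactor needed for LCN2 induction, fell from 1371 ± 149 to 228 ± 24.6 (log2 fold change -2.58, limma adjusted p=1.06e-05). The interleukin 6 gene IL6 fell from 3438 ± 46.0 to 1099 ± 88.9 (log2 fold change -1.65, limma adjusted p=8.35e-06). CEBPD fell from 1894 ± 91.1 to 697 ± 115 (log2 fold change -1.45, limma adjusted p=1.22e-04) and RELB from 664 ± 32.6 to 332 ± 85.3 (log2 fold change -1.03, limma adjusted p=0.00335). The other 8 lay between -0.82 and -0.29, and NFKB1 (0.03, limma adjusted p=0.753) and IL6R (0.30, limma adjusted p=0.123) did not pass. Taken as medians, the 7 lists differed by -1.48 to 0.29 log2 units, beside -0.01 over all genes. With 1 library left out, 9 to 11 of these genes were called lower, and 5 to 6 of the complement inhibitors.

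**Figure D3:**
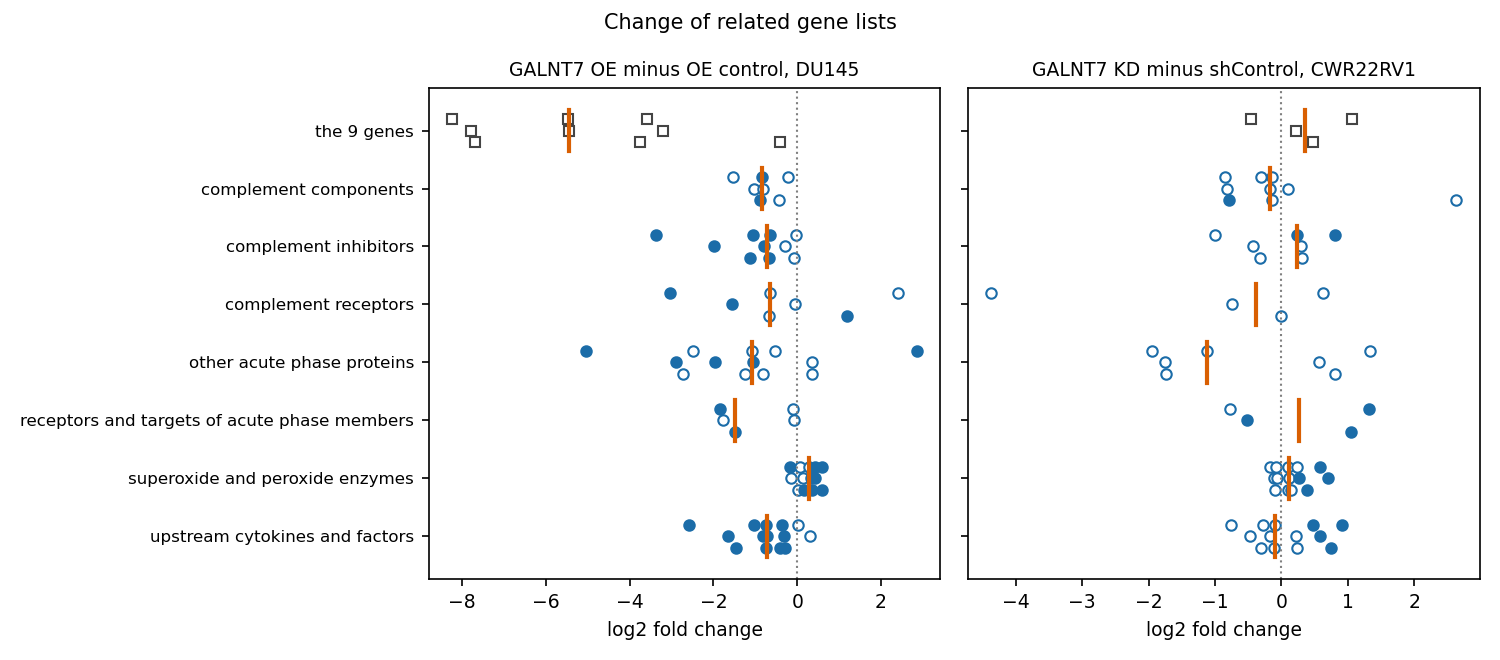
Log2 fold change of the 9 genes (squares, untested in DU145) and of the tested genes of 7 related lists (circles, filled where the limma adjusted p was under 0.05) in DU145 cells (left) and CWR22RV1 cells (right), with an orange bar at each list's median and a dotted line at the median of all genes. In the left panel the median of superoxide and peroxide enzymes lies right of the line and that of every other list left of it. Single genes of a list can lie on either side. The scales of the panels differ.

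Markers of other cell types were checked because the liver is the main source of these proteins. The hepatocyte list summed to 14.1 to 26.7 normalised counts in the OE control libraries and 5.55 to 13.6 in the GALNT7 OE libraries over 8 genes, and its defining genes APOB, APOC3, TTR and F9 had no read. The macrophage list summed to 2660 to 2869 in OE control and 1030 to 1157 in GALNT7 OE, with 3 of 4 tested genes lower and 0 higher. Nearly all of that sum was CD68, a lysosomal protein gene, at 2675 ± 89.2 and 1035 ± 73.3 (limma adjusted p=1.46e-05), while the leukocyte gene PTPRC had at most 2.10 normalised counts. The fibroblast list summed to 307 to 449 in OE control and 73.9 to 179 in GALNT7 OE, mostly COL1A1 at 334 ± 73.6 and 90.6 ± 55.4, and LUM had no read. The part of these lists in the differences above was not tested. The epithelial keratin gene KRT8 was at 12979 ± 629 and 12400 ± 1130, and KLK3 had no read in DU145 cells.

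In CWR22RV1 cells, where the choice of genes used no value, 5 of the 9 genes were barely detected. SAA1 was at 1.87, 0 and 0.92 normalised counts in shControl and at 1.93, 0 and 0.96 in GALNT7 KD, and SAA2 had 1 read in 1 GALNT7 KD library and none elsewhere. LCN2 was at 1.87, 0 and 0.92 in shControl and at 0, 2.13 and 0 in GALNT7 KD. On its primary identifier CFB was at 0, 3.54 and 0 in shControl, and it had no read on either identifier in GALNT7 KD cells. SERPINA3 was at 0.93, 0.88 and 0.92 in shControl and at 0, 5.33 and 3.85 in GALNT7 KD. These 5 genes had a mean under 5, the minimum for a test, and no library held more than 5 of their reads. At this depth a count of 0 allows up to 3 reads, or 2.65 to 3.20 normalised counts per library, so no direction was read from them.

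**Figure D4:**
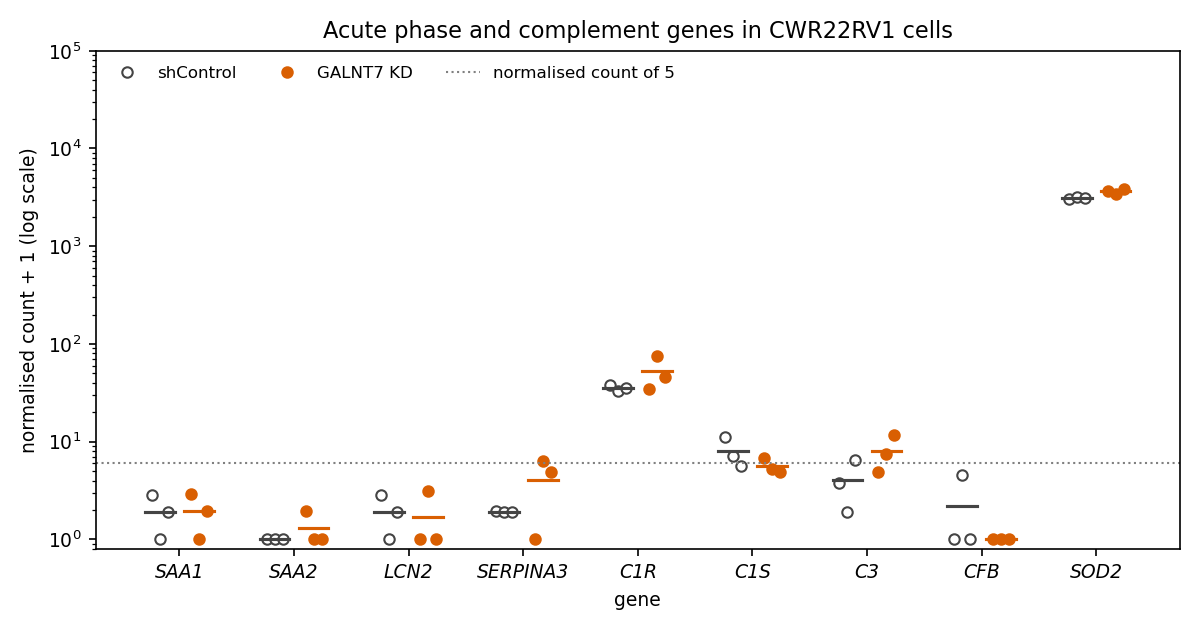
Normalised count plus 1, on a log scale, of the 9 genes in CWR22RV1 cells, with 1 point per library (open, shControl; filled, GALNT7 KD), a bar at each group mean and a dotted line at the minimum mean of 5. SOD2 lies between 3071 and 3843 normalised counts, C1R lies between 31.8 and 74.7, and the remaining genes sit near or below the line.

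SOD2 was well measured in both groups. It was at 3071, 3150 and 3146 normalised counts in shControl and at 3642, 3448 and 3843 in GALNT7 KD. Each GALNT7 KD library lay above each shControl library, but the log2 fold change of 0.22 (SE 0.0542, 95% limma interval 0.09 to 0.35) did not pass after adjustment across 17906 genes (limma adjusted p=0.0518). The adjusted p lay between 0.00403 and 0.161 over the alternatives, and SOD2 passed with DESeq2 (0.00403), with a minimum mean of 50 (0.0438) and without GALNT7 KD replicate 2 (0.0472). Beside it, C1R was at 37.3, 31.8 and 34.8 in shControl and at 33.8, 74.7 and 45.3 in GALNT7 KD, with overlapping groups and a log2 fold change of 0.48 (95% limma interval -0.25 to 1.20, limma adjusted p=0.373).

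C1S was at 10.3, 6.19 and 4.58 in shControl and at 5.80, 4.27 and 3.85 in GALNT7 KD, a log2 fold change of -0.46 (95% limma interval -1.51 to 0.59, limma adjusted p=0.56). C1R and C1S lie on chromosome 12, whose genes had a median log2 fold change of -0.28 in this comparison, and relative to that median the values were 0.76 and -0.18. The part of this shift in their values was not tested. Of the genes beside or overlapping them, CLSTN3 was higher by 3.99 on the log2 scale (limma adjusted p=0.017). Its call was lost with any 1 GALNT7 KD replicate left out, at adjusted p-values of 0.053 to 0.055. LPCAT3 and PHB2 were lower by 0.41 and 0.36 (limma adjusted p=0.00867 and 0.0102). C1RL and EMG1 did not pass (limma adjusted p=0.942 and 0.268). Whether C1R and C1S shared reads with these genes was not tested. C3 was at 2.80, 0.88 and 5.49 in shControl and at 3.87, 6.40 and 10.6 in GALNT7 KD, a log2 fold change of 1.06 (95% limma interval -0.43 to 2.55, limma adjusted p=0.339). Of the 4 tested members 0 passed in limma, beside 5.28% of all genes called higher and 3.79% called lower. SOD2 had an unadjusted p of 0.00491, and the other 3 had unadjusted p-values of 0.137 to 0.333.

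Set beside each other, the 2 comparisons gave a log2 fold change for SOD2 of -3.58 with GALNT7 OE and 0.22 with GALNT7 KD, for C3 of -5.48 and 1.06, for C1R of -3.21 and 0.48, and for C1S of -3.75 and -0.46. The cell lines and their deposited scales differ, so levels were not compared between them. In CWR22RV1 cells SOD2 alone of the 9 had a mean above 50 in both groups.

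Of the related lists in CWR22RV1 cells, 12 of 58 tested genes were higher and 2 lower, beside 5.28% of all genes called higher and 3.79% called lower. Clusterin (CLU) rose from 13059 ± 184 to 22884 ± 244 (log2 fold change 0.81, limma adjusted p=5.35e-05) in the knockdown. PRDX1 rose by 0.58 on the log2 scale (limma adjusted p=6.96e-04) and PRDX5 by 0.38 (limma adjusted p=0.00754). KLK3, the prostate specific antigen gene whose protein is bound by alpha-1-antichymotrypsin, rose from 392 ± 46.3 to 808 ± 45.0 (log2 fold change 1.05, limma adjusted p=0.00368). The interleukin 6 receptor gene IL6R rose by 0.57 (limma adjusted p=0.0103) and NFKB2 by 0.48 (limma adjusted p=0.00736). These 6 calls held under each of the 16 alternatives run. With overexpression in DU145 cells, CLU and NFKB2 were lower and PRDX1 was higher. PRDX5 and IL6R did not pass there, and KLK3 had no read.

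The remaining calls in CWR22RV1 cells depended on the libraries used. The lipocalin receptor gene SLC22A17 was at 71.1 ± 23.3 in shControl and 172 ± 16.1 in GALNT7 KD (limma adjusted p=0.0308, and 0.06 to 0.093 without any library but shControl replicate 2). GPX3 was at 280 ± 29.3 and 454 ± 37.9 (limma adjusted p=0.0164, and 0.053 to 0.068 without GALNT7 KD replicate 1 or shControl replicate 2 or 3). CFD was at 135 ± 1.49 and 78.9 ± 18.0 (limma adjusted p=0.0452, and 0.099 to 0.14 without any library but GALNT7 KD replicate 3). The calls of CD46, SCARB1, SOD1, IL1R1 and IL6ST, with limma adjusted p-values of 0.0245, 0.0144, 0.019, 0.0277 and 0.0334, were each lost without at least 3 of the 6 libraries, GALNT7 KD replicate 1 and shControl replicate 1 among them each time, with adjusted p-values up to 0.11. Among the lists with no call, complement receptors had 4 tested genes and other acute phase proteins 7. FGA, FGB, FGG, CRP and SAA4 had no read in CWR22RV1 cells, nor had IL1A, IL1B and OSM, and SERPING1 had at most 6.74 normalised counts. The hepatocyte list summed to 48.5 to 89.6 in shControl and 12.5 to 46.4 in GALNT7 KD, with F9 at 0, the macrophage list to 115 to 131 and 123 to 182, with PTPRC at no more than 1.77, and the fibroblast list to 328 to 384 and 715 to 801. Of the 7 tested fibroblast genes 1 was higher and 1 lower. LUM, which made up most of the sum, rose from 225 ± 26.3 to 626 ± 45.6 (log2 fold change 1.47, limma adjusted p=0.00156), and the growth factor receptor gene PDGFRA fell from 20.3 ± 10.2 to 0.678 ± 0.589 (log2 fold change -3.64, limma adjusted p=0.0118, and 0.0526 without shControl replicate 3). Their part in the values of the members was not tested.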

How the data were processed

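The authors deposited a table per cell line of normalised counts, a signal made from counts divided by size factors. The submitters' processing notes name FastQC, Salmon, DESeq2, R 3.5.3 and hg38. Whole reads were recovered from each library's step per read (100% of values within 0.001 reads). Differences were tested with limma 3.58.1 in R 4.3.3 separately in each cell line. The test used log2 of the normalised count plus 1 and the genes whose mean was at least 5, and p-values were adjusted by Benjamini-Hochberg (threshold 0.05). A fold change on this scale understates that of low genes. Gene positions and lengths came from GENCODE release 29 (94.4% of identifiers, GRCh38). The members and lists were chosen with earlier results of these data known. Named genes were all members, list genes past the threshold with a mean of at least 50 (up to 4 per list and direction), defining markers near 0, neighbouring genes and the 5 nearest profiles. Genes named outside this rule were chosen after their values were seen. Alternatives included edgeR 4.0.16 and DESeq2 1.42.0 on the recovered reads, other filters, pseudocounts and scalings, a replicate block and each library left out. On simulated counts limma called 200 of 200 changed genes in both designs. It called 7 unchanged genes of 17935 for the knockdown and 3 of 18732 for the overexpression. Whether limma would detect differences of the size and level seen for the members in CWR22RV1 cells was not tested. Replicates differed by more than sampling noise (mean chi-square per gene 9.05 to 26.2). The values of 1 marker gene are not reported here.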

Additional observations from a re-analysis of the deposited data

How the results depend on the processing

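In DU145 cells 8 members stayed far below control under every alternative run, and SERPINA3 lay between -0.65 and 0.07 (log2) with a library left out. The median log2 fold change of the 9 genes was -4.60 with a pseudocount of 10 and -5.52 to -5.20 with a library left out, and by the same construction a larger pseudocount shrinks genes with few reads most. With a library left out, 8 to 9 members showed no overlap. In CWR22RV1 cells 1 member (SOD2) was called higher with DESeq2, 1 with a minimum mean of 50, and 0 to 1 with a library left out. List genes called higher there were 7 without the eBayes trend and 6 to 11 with a library left out, and those called lower were 4 with DESeq2, 0 without the trend, 1 with edgeR, 1 with a minimum mean of 1 and 0 to 3 with a library left out. The cause was not tested.

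Same-numbered replicates deviated together by a correlation of -0.011 to 0.075, so the numbers were not taken as pairs. With the replicate block, 594 genes were higher and 408 lower in CWR22RV1 cells, beside 945 and 678 without it. In the same fit 8 list genes were higher and 2 lower, the SOD2 adjusted p was 0.0842, and the DU145 median stayed at -5.44. DESeq2 called 1481 higher and 1161 lower in CWR22RV1 cells, the fit without the trend 579 and 417, and fits with a library left out 298 to 732 and 197 to 600. In DU145 cells rescaling to the 75th percentile gave 3380 higher and 4736 lower, beside 4290 and 3842. With 3 libraries a group and few reads, no direction can be given for SAA1, SAA2, LCN2, CFB and SERPINA3 in CWR22RV1 cells.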
